A study of Mus musculus with 8 samples.

Results

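The 8 genes described here, *Slc1a2*, *Slc1a3*, *Glul*, *Aqp4*, *Kcnj10*, *Gja1*, *Gjb6* and *Mlc1*, encode the proteins with which astrocytes take up glutamate, handle water and potassium, and couple to each other. They were chosen by symbol, with earlier results of these data known. All 8 of 8 were found once each among the 31053 genes of the count matrices. The study dissociated the prefrontal cortex (PFC) and the striatum of male C57BL/6N mice and counted unique molecular identifiers (UMIs, each standing for one captured transcript) per gene and droplet with the 10x Chromium platform. Each tissue gave 2 libraries from wild-type (WT) mice and 2 from Setd1a+/- littermates, and each library held the pooled tissue of 2 mice, so a replicate here is a library. The Setd1a+/- mice carried a germline frameshift allele, made with CRISPR-Cas9 in exon 15 of *Setd1a*, which encodes a histone H3K4 methyltransferase, and neither genotype was treated. The labels give an age of 8 to 10 weeks, which differs from the age in the study's methods, and name the striatal tissue NAc, where the study describes dorsal and ventral striatum.

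Glutamate released at synapses is cleared mainly by astrocytes through 2 transporters, GLT-1 (*Slc1a2*) and GLAST (*Slc1a3*). Inside the astrocyte, glutamine synthetase (*Glul*) turns glutamate into glutamine, which returns to neurons. The water channel aquaporin 4 (*Aqp4*) and the inwardly rectifying potassium channel Kir4.1 (*Kcnj10*) keep water and extracellular potassium in balance, and *Mlc1* encodes a membrane protein of astrocyte endfeet and contacts. Connexin 43 (*Gja1*) and connexin 30 (*Gjb6*) form the gap junctions that join astrocytes into a network.

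Positions of 7 members are given in the mouse build GRCm38 with GENCODE vM21. *Glul* (chromosome 1, 153899944 to 153909723) and *Kcnj10* (chromosome 1, 172341210 to 172374085) are on the forward strand, as are *Slc1a2* (chromosome 2, 102658659 to 102790784) and *Gja1* (chromosome 10, 56377330 to 56402513). *Slc1a3* (chromosome 15, 8634124 to 8710764), *Mlc1* (chromosome 15, 88955884 to 88979007) and *Gjb6* (chromosome 14, 57123303 to 57133611) are on the reverse strand. All are protein-coding genes. RefSeq promoter windows (GRCm38.p6) matched 7 of the 8 members. They are shown because the members differ in the cell types that express them. The bases upstream of the RefSeq start are printed for *Glul* and *Kcnj10*, which oligodendrocytes expressed as well, and for *Slc1a2* and *Mlc1*, in which CpG dinucleotides were fewest. Each runs 5′ to 3′ on the gene's own strand over 250 bases, with each CpG in capitals. They are chr1:153899679-153899928 (forward), chr1:172340960-172341209 (forward), chr2:102706188-102706437 (forward) and chr15:88978554-88978803 (reverse), in the order of the lines.
Glul: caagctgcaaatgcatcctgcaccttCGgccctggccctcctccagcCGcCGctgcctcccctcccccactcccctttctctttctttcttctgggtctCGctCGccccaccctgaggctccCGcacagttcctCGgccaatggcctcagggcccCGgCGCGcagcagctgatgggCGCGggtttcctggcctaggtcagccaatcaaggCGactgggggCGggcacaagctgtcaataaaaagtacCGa
Kcnj10: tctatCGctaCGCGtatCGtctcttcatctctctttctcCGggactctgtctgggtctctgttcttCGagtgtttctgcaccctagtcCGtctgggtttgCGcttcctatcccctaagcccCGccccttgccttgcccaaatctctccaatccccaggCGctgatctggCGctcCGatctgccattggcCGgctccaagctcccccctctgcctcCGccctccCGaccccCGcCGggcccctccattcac
Slc1a2: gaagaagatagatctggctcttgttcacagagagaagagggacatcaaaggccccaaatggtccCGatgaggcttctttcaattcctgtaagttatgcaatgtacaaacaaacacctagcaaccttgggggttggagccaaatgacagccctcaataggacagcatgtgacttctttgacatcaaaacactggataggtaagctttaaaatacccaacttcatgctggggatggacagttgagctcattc
Mlc1: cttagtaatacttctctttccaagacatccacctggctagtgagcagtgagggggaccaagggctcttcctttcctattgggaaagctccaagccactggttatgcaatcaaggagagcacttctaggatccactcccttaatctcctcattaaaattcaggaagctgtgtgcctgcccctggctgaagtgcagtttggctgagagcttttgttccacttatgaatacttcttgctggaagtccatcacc

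The windows of *Kcnj10* and *Glul* held 17 and 15 CpG and were 62.0% and 64.8% G or C. Those of *Gja1*, *Gjb6*, *Slc1a3*, *Slc1a2* and *Mlc1* held 6, 5, 2, 1 and 0 CpG. Over all 32851 promoter windows of the table the median was 6 CpG, and 72.7% of windows held fewer CpG than that of *Glul*. The GC box (GGGCGG, either strand), present in 32.7% of all windows, occurred in those of *Kcnj10*, *Glul* and *Slc1a3*, and the CCAAT box (CCAAT, either strand; in 33.8%) in those of *Kcnj10*, *Glul*, *Slc1a3* and *Mlc1*. The half-site of nuclear factor I factors (TTGGCA, either strand; in 12.3%) was found in 0 of the 7 windows. The reversed CCAAT box (ATTGG) shares the letters TTGG with the half-site, and a match describes letters alone. The *Slc1a2* and *Mlc1* windows lie inside the GENCODE gene bounds. That of *Slc1a2* begins at 102706188, far downstream of the GENCODE start at 102658659. That of *Mlc1*, on the reverse strand, ends at 88978803, within the GENCODE end at 88979007. Their CpG counts describe the RefSeq starts used here and not the bases upstream of the GENCODE starts.

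The libraries held 15154268 to 26277553 UMIs over all barcodes. The authors annotated 23687 cells, 8997 from PFC and 14690 from striatum, and 1411 of these were astrocytes, 554 in PFC and 857 in striatum. The WT libraries gave 187 and 130 astrocytes from PFC, where the Setd1a+/- libraries gave 63 and 174. From striatum the WT libraries gave 258 and 214, and those of Setd1a+/- mice 354 and 31, so the second Setd1a+/- striatal library gave the fewest astrocytes of all 8. Their UMIs summed to between 94178 in that library and 887706 in the first Setd1a+/- striatal library, and the median astrocyte held 2026 UMIs in PFC and 1974 in striatum. Of the barcodes, 311 occurred in 2 or more libraries, and 34 astrocytes carried such a barcode. *Setd1a* itself was sparse, at 8.45 and 11.2 UMIs per 1000000 (CPM) in WT PFC libraries against 5.59 and 9.33 CPM in those of Setd1a+/- mice, and at 13.4 and 15.2 against 9.16 and 12.5 CPM in the striatum. In astrocytes it had 0 to 12 UMIs per library, too few to show the genotype there.

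The astrocyte label was checked against 9 markers that are not members. In both tissues 8 of 9 had their highest median level in astrocytes, and the exception, *S100b*, was highest in newly formed oligodendrocytes. The 9 markers summed to 18025 to 19055 CPM in PFC astrocytes and to 8877 to 19324 CPM in striatal astrocytes, the lowest being the second Setd1a+/- striatal library. Ependymal markers were also found in cells with this label. *Foxj1*, *Ccdc153* and *Tmem212*, genes of the ciliated cells that line the ventricles, summed to 332 to 1402 CPM in striatal astrocytes and to 0 to 3.67 CPM in PFC astrocytes. A UMI of them was found in 63 striatal astrocytes, 12 and 10 of the WT libraries, 32 and 9 of the Setd1a+/- ones, and in 2 PFC astrocytes. Of the 63 cells, 60 held at least 3 such UMIs. The median over the 63 cells was 22 such UMIs and the highest value 78. In the second Setd1a+/- striatal library they made up 29.0% of the astrocytes and 43.6% of their UMIs, against 4.65 to 9.04% of the astrocytes and 7.76 to 24.4% of the UMIs in the other 3. The tests on striatal astrocytes are therefore given with and without these cells. Astrocyte here means a cell with the authors' label, and whether the 63 cells are astrocytes was not tested. In PFC the first Setd1a+/- library, which had 63 astrocytes and the highest *Kcnj10* and *Gjb6* of the 4, stood apart for some genes of other lists. Of 4 endothelial markers, *Ly6c1* and *Flt1* were highest in its astrocytes, at 205 and 103 CPM (10.8 to 36.2 CPM in the other 3 libraries), while *Cldn5* and *Pecam1* were at 8.54 and 0 CPM (2.71 to 33.0 CPM). Of 3 mural cell markers, *Rgs5* and *Vtn* were highest, at 154 and 171 CPM (0 to 82.0 CPM), and *Pdgfrb* was lowest, at 17.1 CPM (55.5 to 99.0 CPM). *Fos*, an immediate early gene, was at 444 CPM (48.8 to 82.0 CPM). Their part in the PFC values was not tested.

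Astrocytes held the highest median level of all 8 members in PFC and of 7 in striatum, and the levels across cell types are a description without a test. Values are CPM of the UMIs that a library's cells of one type hold together. The transporter *Slc1a2* was at 3309 and 3149 CPM in WT libraries, against 3512 and 3398 CPM in Setd1a+/- libraries in PFC astrocytes. In striatal astrocytes it was at 3348 and 2810.4 CPM in WT libraries, against 3075 and 1858 CPM in those of Setd1a+/- mice. The second Setd1a+/- striatal library lay below the other 7. Outside astrocytes, *Slc1a2* followed in PFC excitatory neurons (490.1 to 602 CPM, 14.4 to 19.1% of the astrocyte level of the same library), then in oligodendrocyte progenitor cells (OPCs; 247 to 360 CPM in PFC). Because the excitatory neurons were many and deep, they held 63.3% of all *Slc1a2* UMIs of the annotated PFC cells, and astrocytes held 22.8%. In the striatum astrocytes held 60.7% of them. D1 and D2 medium spiny neurons, the projection neurons of the striatum, were at 15.6 to 45.5 CPM.

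**Figure D1:**
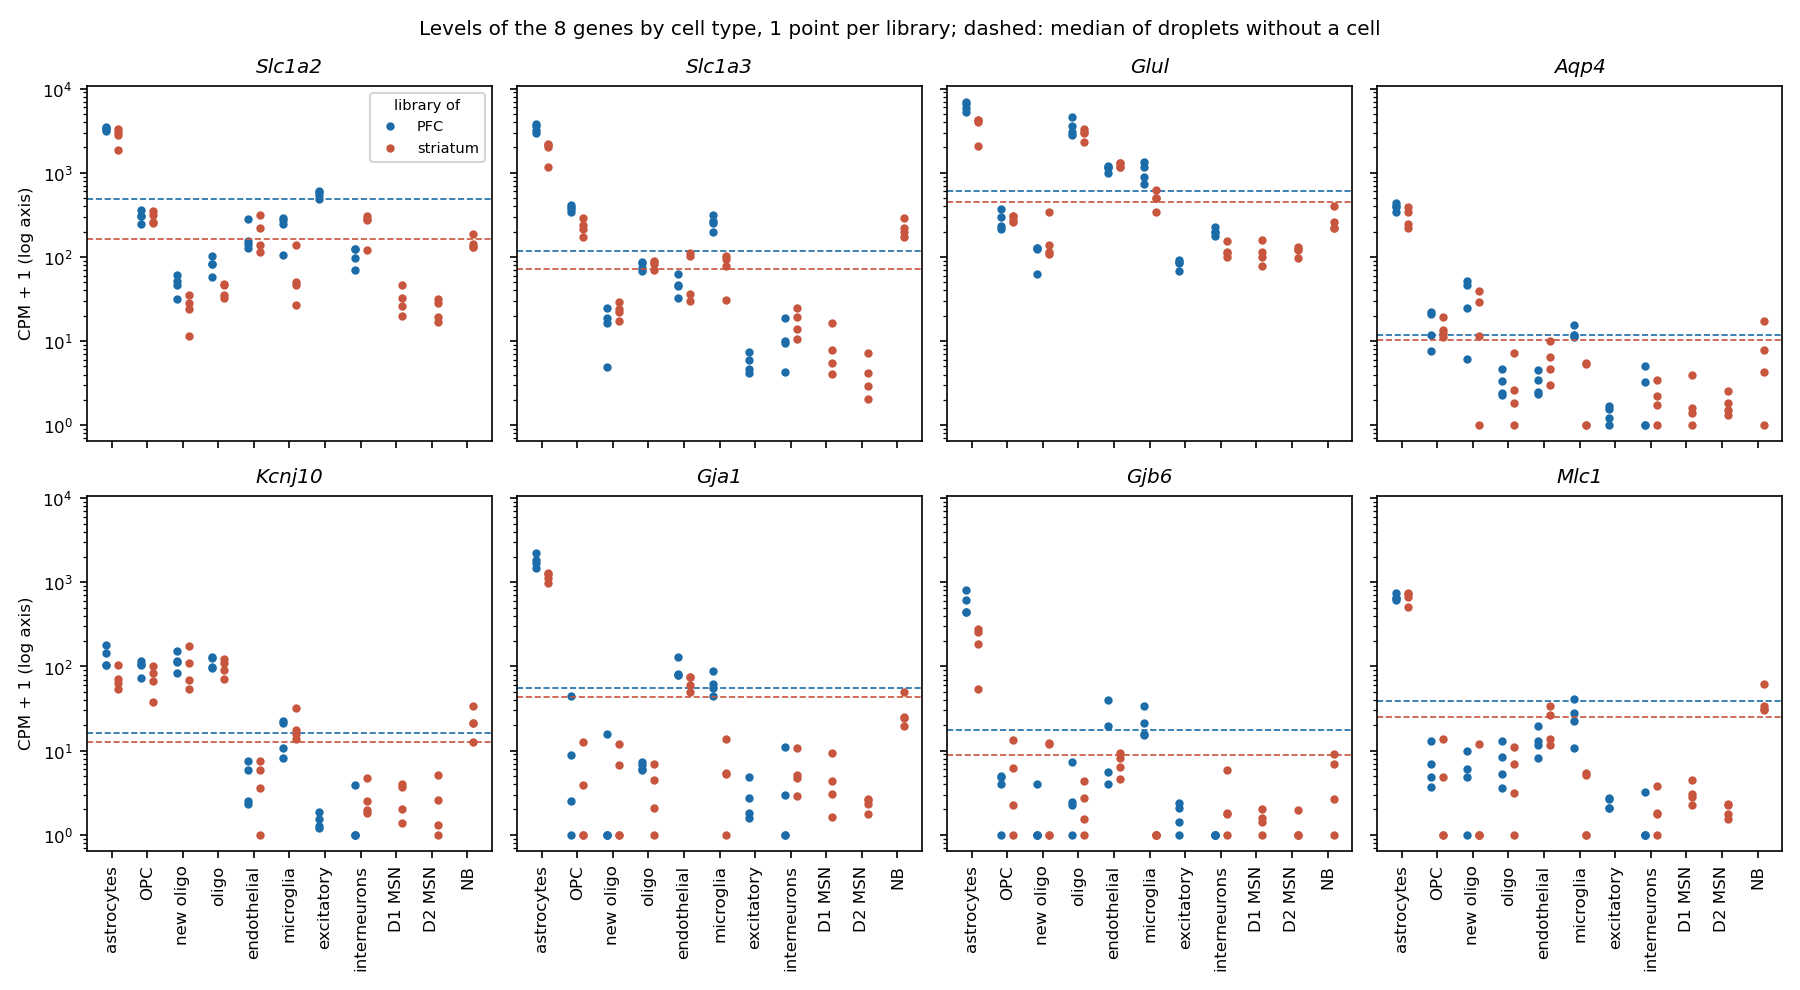
CPM + 1 (log axis) of the 8 genes in each annotated cell type, with 1 point per library, blue for PFC and red for striatum, and dashed lines at the median of the droplets without a cell in each tissue. Astrocyte points lie apart from and above those of the other types for 6 genes, whereas *Kcnj10* has points of OPCs and of both oligodendrocyte stages at the astrocyte level and *Glul* has mature oligodendrocytes close to it. OPC, oligodendrocyte progenitor cells; oligo, oligodendrocytes; MSN, medium spiny neurons; NB, neural stem cells and neuroblasts.

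The second transporter, *Slc1a3*, was at 3844 and 3219 CPM in WT libraries, against 2965 and 3598 CPM in Setd1a+/- libraries in PFC astrocytes. In striatal astrocytes it was at 2199 and 2132 CPM in WT libraries, against 2025 and 1179 CPM in those of Setd1a+/- mice, all below the 4 PFC libraries. OPCs were next in PFC at 338 to 418 CPM, and in striatum OPCs and neural stem cells and neuroblasts were at 173 to 292 and 170.3 to 289 CPM, ranges that overlap. Excitatory neurons, unlike for *Slc1a2*, were at 3.12 to 6.41 CPM. The ratio of *Slc1a2* to *Slc1a3* UMIs was 115 in excitatory neurons, 0.94 in PFC astrocytes, 1.47 in striatal astrocytes and 0.82 in PFC OPCs.

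*Glul* was at 5941 and 5224 CPM in WT libraries, against 6503 and 6899 CPM in Setd1a+/- libraries in PFC astrocytes. In striatal astrocytes it was at 4237 and 4233 CPM in WT libraries, against 4001 and 2059.9 CPM in those of Setd1a+/- mice. Mature oligodendrocytes followed closely, at 2811 to 4619 CPM in PFC and 2310.2 to 3334 CPM in striatum. That was 46.3 to 67.0% of the astrocyte level of the same library in PFC and 69.6 to 112% in striatum, where the ranges of the types overlapped. Without the astrocytes with an ependymal UMI, striatal astrocytes were at 3481 to 5207 CPM, above all 4 oligodendrocyte values. As the larger group, oligodendrocytes held 46.9% of the *Glul* UMIs in each tissue, against 23.9% in PFC astrocytes and 22.5% in striatal astrocytes. Newly formed oligodendrocytes were at 61.2 to 126 CPM in PFC, well under the mature stage and without overlap. Endothelial cells were at 999.8 to 1302 CPM over the 8 libraries.

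*Kcnj10* was the least particular to astrocytes. It was at 104 and 143 CPM in WT libraries, against 179 and 103 CPM in Setd1a+/- libraries in PFC astrocytes, and at 70.4 and 63.2 against 103 and 53.1 CPM in striatal astrocytes, from 5 to 91 UMIs per library. In PFC, OPCs were at 71.7 to 116 CPM, newly formed oligodendrocytes at 81.6 to 152 CPM and mature oligodendrocytes at 94.3 to 129 CPM, so all 4 ranges overlapped. In the striatum, oligodendrocytes had the highest median, 99.2 CPM, and stood at 119 to 153% of the astrocyte level of the same library. Excitatory neurons were at 0.21 to 0.85 CPM. Oligodendrocytes thus held 47.4% of all *Kcnj10* UMIs of PFC cells and 53.6% of those of striatal cells, and astrocytes 14.5% and 14.8%.

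*Aqp4*, *Gja1*, *Gjb6* and *Mlc1* were found mostly in astrocytes, which held 79.9 to 86.8% of their UMIs in both tissues. *Aqp4* was at 432 and 389 CPM in WT libraries, against 402 and 336 CPM in Setd1a+/- libraries in PFC astrocytes, and at 337 and 222 against 388 and 244 CPM in striatal ones. The next type was newly formed oligodendrocytes, at 5.10 to 50.7 CPM in PFC, with 7.12% of their cells holding a UMI of this channel. *Gja1* was at 2242 and 1701 CPM in WT libraries, against 1487 and 1836 CPM in Setd1a+/- libraries in PFC astrocytes, and at 1239.6 and 1276 against 1121 and 987 CPM in striatal ones. Endothelial cells were next for this connexin, at 77.1 to 129.9 CPM in PFC and 49.3 to 74.9 CPM in striatum. *Gjb6*, the other connexin, was at 608 and 444 CPM in WT libraries, against 820.3 and 442 CPM in Setd1a+/- libraries in PFC astrocytes, and at 254 and 185 against 280.5 and 53.1 CPM in striatal ones, the last from 5 UMIs. *Gjb6* UMIs numbered 0 in PFC interneurons and in striatal microglia. *Mlc1* was at 748 and 612 CPM in WT libraries, against 658 and 656 CPM in Setd1a+/- libraries in PFC astrocytes, and at 743 and 671 against 732 and 509.7 CPM in striatal ones, so its tissues overlapped.

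Single astrocytes differed in how many carried each transcript. In PFC a UMI of *Glul* was found in 100% of the 554 astrocytes (95% Wilson interval 99.3 to 100%), of *Slc1a3* in 99.3%, of *Slc1a2* in 98.9% and of *Gja1* in 96.9%. The share was 74.2% for *Mlc1*, 64.6% for *Gjb6*, 52.7% for *Aqp4* and 22.0% for *Kcnj10* (Wilson interval 18.8 to 25.7%). Among the 857 striatal astrocytes the share was 97.1% for *Slc1a3*, 96.7% for *Glul*, 90.1% for *Gja1* and 77.6% for *Mlc1*. It was under 50% there for *Aqp4* (46.3%), *Gjb6* (39.0%) and *Kcnj10* (14.7%). Excitatory neurons, with a median of 6546 UMIs, held a *Gja1* UMI in 1.33% of cells. With every cell thinned to 1000 UMIs, *Gja1* was found in 84.1% of PFC astrocytes, 66.2% of striatal astrocytes and 0.32% of excitatory neurons. At that depth the median astrocyte of either tissue held 5 of the 8 members, and the mean was 5.03 in PFC and 4.39 in striatum. At least 4 members were found together in 94.2% of PFC and 79.2% of striatal astrocytes. Without the cells with ependymal UMIs the striatal values were 84.0% and a mean of 4.57.

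Free RNA was measured in barcodes with 1 to 50 UMIs that are no annotated cell. *Slc1a2* stood at 407 to 570.2 CPM there in PFC and at 117 to 194 CPM in striatum, *Glul* at 430.1 to 767 and 302 to 599.8 CPM, and *Gja1* at 32.9 to 63.9 and 35.5 to 52.1 CPM. The *Slc1a2* level of excitatory neurons thus lay within the range of the PFC droplets or slightly above it. The ratio of *Slc1a2* to *Slc1a3* UMIs was 115 in excitatory neurons and 4.46 in the PFC droplets. *Gja1* was at a median of 53.7 CPM in those droplets and 1.25 CPM in excitatory neurons. The part of free RNA in the *Slc1a2* of excitatory neurons was not tested. CPM in the droplets is a share of their UMIs, not the amount of free RNA in a cell. *Kcnj10* in oligodendrocytes and *Glul* in oligodendrocytes lay above the droplet levels of 7.51 to 21.1 CPM and 302 to 767 CPM in every library. In OPCs and endothelial cells of the PFC, *Slc1a2* lay below the droplet level, and how much of it was free RNA was not tested.

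Excitatory neuron subtypes of the PFC, named by the authors by layer and a marker gene, differed in *Slc1a2*. DL-Foxp2 neurons of the deep layers were at 849 and 895 CPM in WT libraries, against 852 and 909 CPM in those of Setd1a+/- mice. DL-Tshz2 neurons were next at 713 to 820.3 CPM, without overlap, and DL-Etv1 and SL-Cux2 neurons followed at 468 to 642 and 392 to 537 CPM, which overlapped with each other. DL-Nnat neurons were at 312 to 402 CPM and superficial SL-Myh7 neurons at 185 to 293 CPM, without overlap, and the 62 DL-Pou3f1 neurons were at 50.3 to 324 CPM. DL-Foxp2 and DL-Tshz2 neurons lay above the droplet range in all 4 libraries. After thinning to 1000 UMIs, a *Slc1a2* UMI was found in 59.6% of DL-Foxp2 neurons and in 15.5% of SL-Myh7 neurons. *Glul* was at 169 to 207 CPM in DL-Foxp2 neurons and at 0 to 99.1 CPM in the other 6 subtypes, all below the droplet range of 430.1 to 767 CPM.

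**Figure D2:**
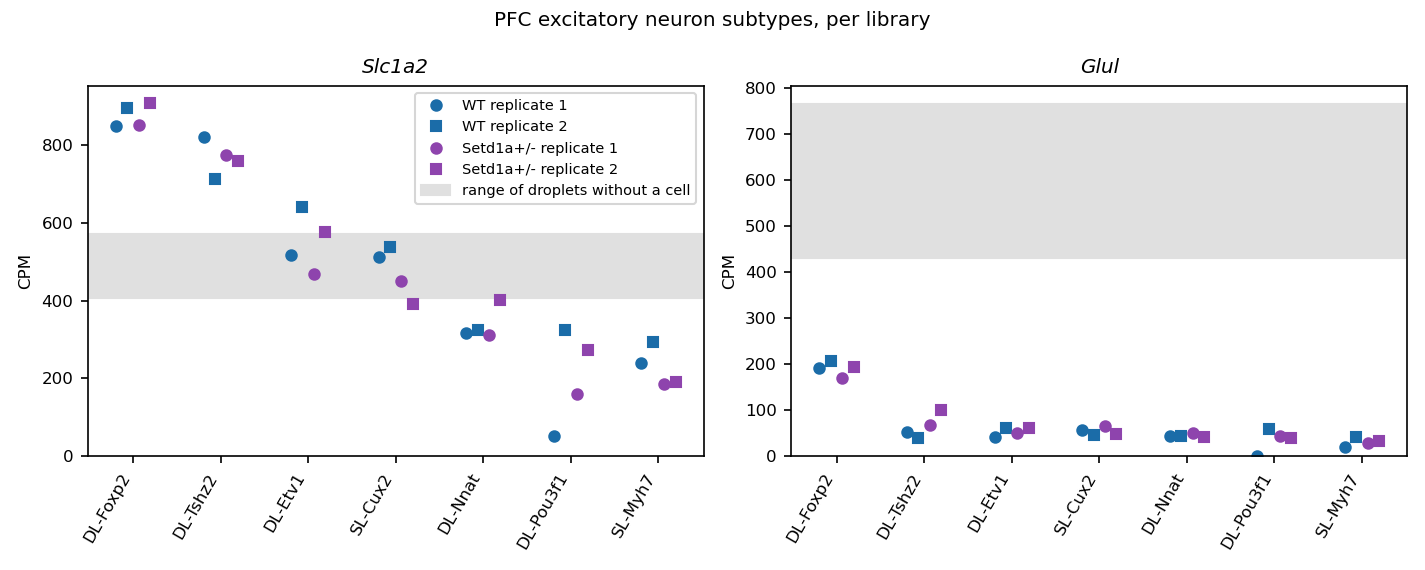
CPM of *Slc1a2* (left) and *Glul* (right) in 7 excitatory neuron subtypes of the PFC, with 1 point per library by genotype and replicate and a gray band over the range of the 4 libraries' droplets without a cell. For *Slc1a2* the DL-Foxp2 points, 849 to 909 CPM, lie above the band and the SL-Myh7 points, 185 to 293 CPM, below it, and for *Glul* all points lie below the band.

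Between genotypes, no member passed the test in any cell type. The question was whether loss of one *Setd1a* copy changed these genes. UMI sums were compared with edgeR's quasi-likelihood test, with Benjamini-Hochberg adjustment (FDR) over all genes tested in a type and cutoffs of FDR under 0.05 and a fold change (FC) above 1.5 in PFC and 2 in striatum. All 8 members passed the filter on low counts in the astrocytes of both tissues, and members were tested 36 times in the 8 cell types of the PFC and 39 times in the 10 of the striatum. The lowest FDR of a member was 1.0 in PFC and 0.92 in striatum. Among all genes, 0% were called in every type but D2 medium spiny neurons (0.0397%, all lower), and DESeq2 likewise called 0 of the members. An unadjusted p under 0.05 was found for 0 member tests in PFC and 2 in striatum, and for 0 of 8 members in the astrocytes of each tissue. With the replicate number as a block it was found for 2 member tests in PFC (*Slc1a2* in endothelial cells, -0.68, and *Aqp4* in newly formed oligodendrocytes, 1.53) and 6 in striatum (*Gja1*, *Slc1a2* and *Slc1a3* in D1 neurons, *Gja1* in endothelial cells, *Slc1a2* in interneurons and *Glul* in neuroblasts). None of these 8 passed the FDR cutoff, the lowest FDR being that of *Gja1* in D1 neurons at 0.066. *Slc1a2* in interneurons, lower by 0.58 under the block on the log2 scale, was at 0.64 without the block and without the cells with *Slc17a7* UMIs. Of all genes, the block put 6.21% in PFC endothelial cells and 5.19% in newly formed oligodendrocytes at such a p, and in striatum 6.06% in D1 neurons, 6.58% in endothelial cells, 4.59% in interneurons and 4.89% in neuroblasts. Without the block, of all genes, 1.3% in astrocytes were at such a p in PFC, and 0.53% in microglia, 1.35% in excitatory neurons, 1.47% in oligodendrocytes, 1.75% in endothelial cells, 2.01% in OPCs, 2.08% in newly formed oligodendrocytes and 2.72% in interneurons. In striatum it was 4.41% in astrocytes, 1.65% in microglia, 2.07% in D1 and 2.5% in D2 neurons, 2.08% in oligodendrocytes, 2.21% in endothelial cells, 2.32% in OPCs, 3.03% in interneurons and in neuroblasts, and 4.12% in newly formed oligodendrocytes.

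The astrocyte values of the genotypes mostly overlapped. *Glul*, glutamine synthetase, was at 5583 ± 507 CPM (SD, n = 2) in WT and 6701 ± 280 CPM in Setd1a+/- PFC astrocytes, and both Setd1a+/- libraries lay above both WT libraries (log2 FC 0.24, standard error 0.22). In striatal astrocytes it was at 4237 and 4233 CPM in WT and 3031 ± 1373 CPM in Setd1a+/- libraries, both of which lay below both WT libraries (log2 FC -0.54, standard error 0.40). *Slc1a2* was at 3229 ± 113 against 3455 ± 80.7 CPM in PFC, again without overlap, and at 3079 ± 380.2 against 2467 ± 861 CPM in striatum, with overlap. *Slc1a3* and *Gja1* were lower in both Setd1a+/- than in both WT striatal libraries, *Slc1a3* at 1602 ± 599 against 2166 ± 47.9 CPM and *Gja1* at 1054 ± 94.3 against 1258 ± 25.6 CPM. The genotypes did not overlap for 2 members in PFC and 3 in striatum, where 26.6% and 40.7% of all genes tested did not overlap either. In the striatum the second Setd1a+/- library, with 31 astrocytes and the highest share of ependymal UMIs, was lowest of the 4 for 7 of the 8 members, *Aqp4* being the exception. Without the astrocytes with an ependymal UMI, *Glul* was at 5031 and 4554 CPM in WT striatal libraries, against 5207 and 3481 CPM in Setd1a+/- libraries, so that the genotypes overlapped (log2 FC -0.14, standard error 0.30). *Slc1a3* overlapped as well, and *Gja1* was the 1 member of 8 that did not, at 1371 and 1343 against 1277 and 1279 CPM, beside 28.9% of all genes tested.

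Over the 8 members, log2 FC in astrocytes ran from -0.25 (*Gja1*) to 0.24 (*Glul*) in PFC with a median of 0.00, where the median over all genes was 0.00. In striatum it ran from -0.54 (*Glul*) to 0.38 (*Kcnj10*) with a median of -0.28, where the median over all genes was -0.03. Without the cells with ependymal UMIs it ran from -0.18 to 0.23 in striatum, with a median of -0.04. The part of these cells in the striatal values was not tested further. By the interaction test no member was called for a difference of the genotype effect between the tissues (lowest FDR 1.0). The largest difference was that of *Glul* at -0.75 (standard error 0.48, unadjusted p = 0.14, from edgeR). With 2 libraries per genotype and tissue, a missed cutoff does not show that the effects were alike.

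The 2 tests with an unadjusted p under 0.05 were both of *Gja1* in the striatum. In D1 medium spiny neurons it was at 2.06 and 0.62 CPM in WT libraries, against 8.49 and 3.30 CPM in those of Setd1a+/- mice, from 3 to 17 UMIs each (log2 FC 2.19, FDR 1.0, and 2.17 with FDR 0.066 under the replicate block). Over all striatal libraries the 36 UMIs lay in 17 of 3904 D1 cells (0.44%). With a library left out the log2 FC ran from 1.46, without the first Setd1a+/- library, to 3.15, without the first WT library. Both Setd1a+/- libraries lay above both WT libraries. Striatal endothelial cells held 350 *Gja1* UMIs. There *Gja1* was at 59.2 and 49.3 CPM in WT libraries, against 74.9 and 74.7 CPM in Setd1a+/- libraries (log2 FC 0.49, FDR 1.0), again without overlap. The share of all genes without overlap was not taken in these types. As both tests were named for their p, the lack of overlap adds no support to them. Droplets without a cell in the striatum stood at 35.5 to 52.1 CPM of *Gja1*, above all 4 D1 values. The part of free RNA in the D1 and endothelial values was not tested.

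**Figure D3:**
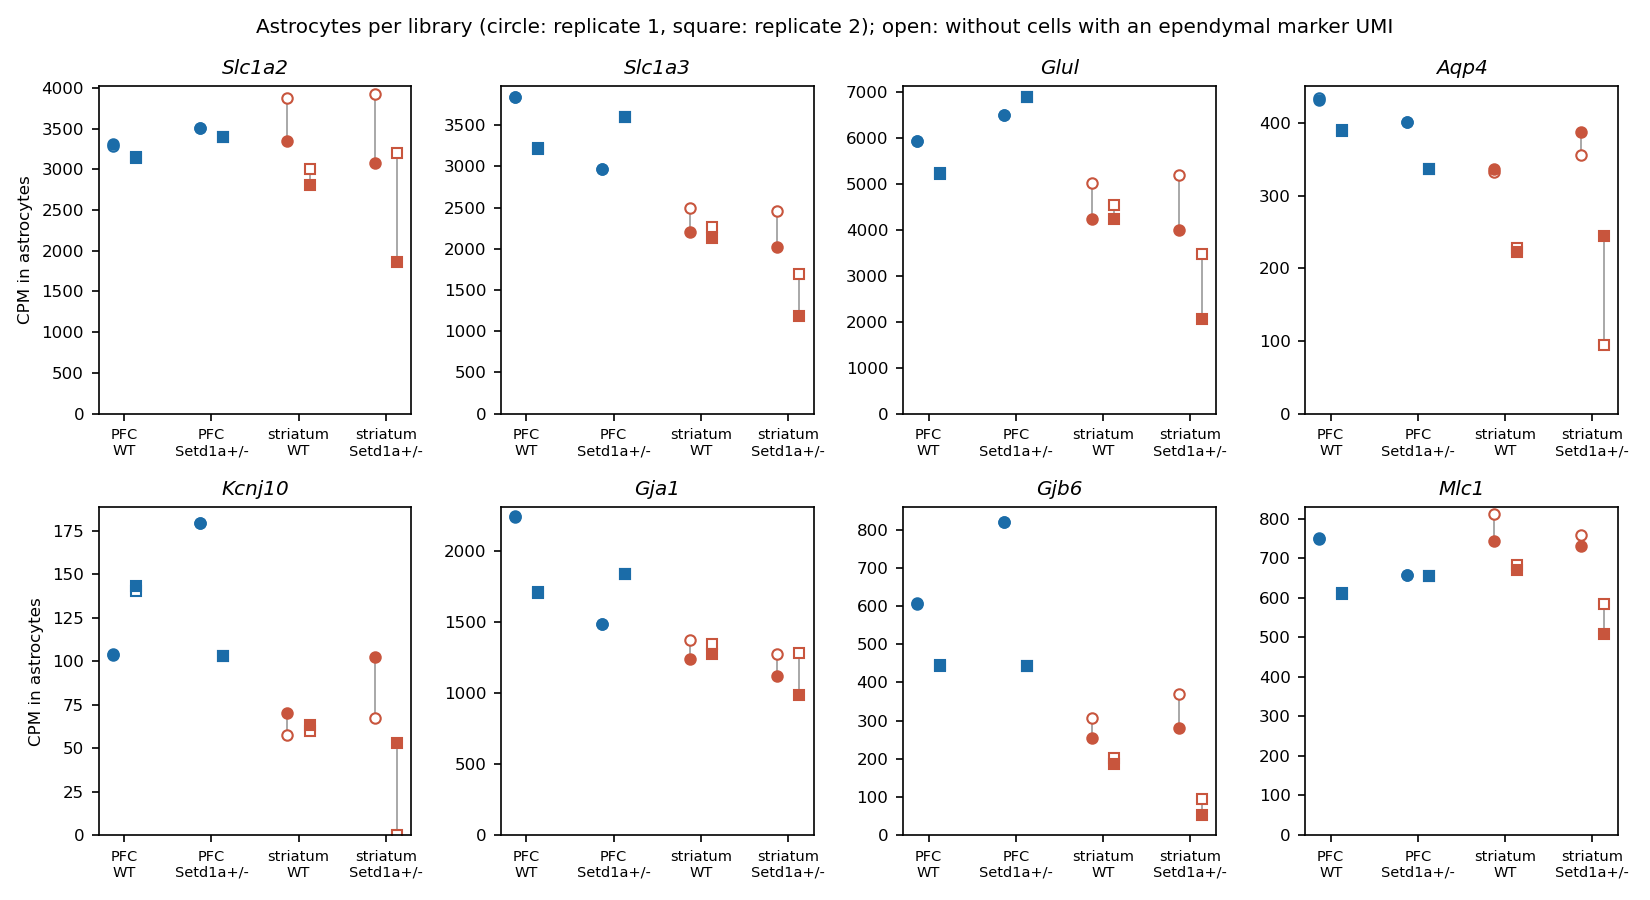
CPM of the 8 genes in astrocytes of each library by tissue and genotype, circles for replicate 1 and squares for replicate 2, filled over all astrocytes and open without the cells that held an ependymal marker UMI, with a gray line joining the 2 values of a library. The second Setd1a+/- striatal library moves most for every gene but *Gjb6*, *Slc1a2* from 1858 to 3198 CPM, and PFC values hardly move. For *Gjb6* the first Setd1a+/- striatal library moves more, from 280.5 to 369 CPM.

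The striatal cells labelled astrocytes that had ependymal UMIs held less of 6 members than the others and more of *Kcnj10*. Pooled over the 4 libraries, the 63 cells held *Slc1a2* at 495 CPM and *Glul* at 287 CPM, where the 794 striatal astrocytes without such UMIs held 3635 and 4922 CPM. *Slc1a3* stood at 671 against 2391 CPM and *Gja1* at 607 against 1322 CPM. *Gjb6* was at 2.54 against 296 CPM, with 0 UMIs of it in 3 of the 4 libraries. These 5 genes were lower in the cells with ependymal UMIs in each of the 4 libraries. *Mlc1*, at 551 against 748 CPM, was lower in each library too, by less when pooled, from 398 against 813 CPM in the first WT library to 651 against 758 CPM in the first Setd1a+/- library. *Kcnj10*, at 173 against 60.2 CPM, was higher in all 4 libraries. *Aqp4*, at 417 against 306 CPM, was higher in 3 and lower in the second WT library, at 158 against 228 CPM. These cells were deeper, with a median of 4944 against 1946 UMIs, and 19.2% of the striatal astrocyte UMIs came from them. After thinning to 1000 UMIs, a *Slc1a2* UMI was found in 25.4% of them and 94.6% of the others, and an *Mlc1* UMI in 46.0% and 53.3%. As the cells were split by marker genes after the authors' clustering, the values are given without a test.

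**Figure D4:**
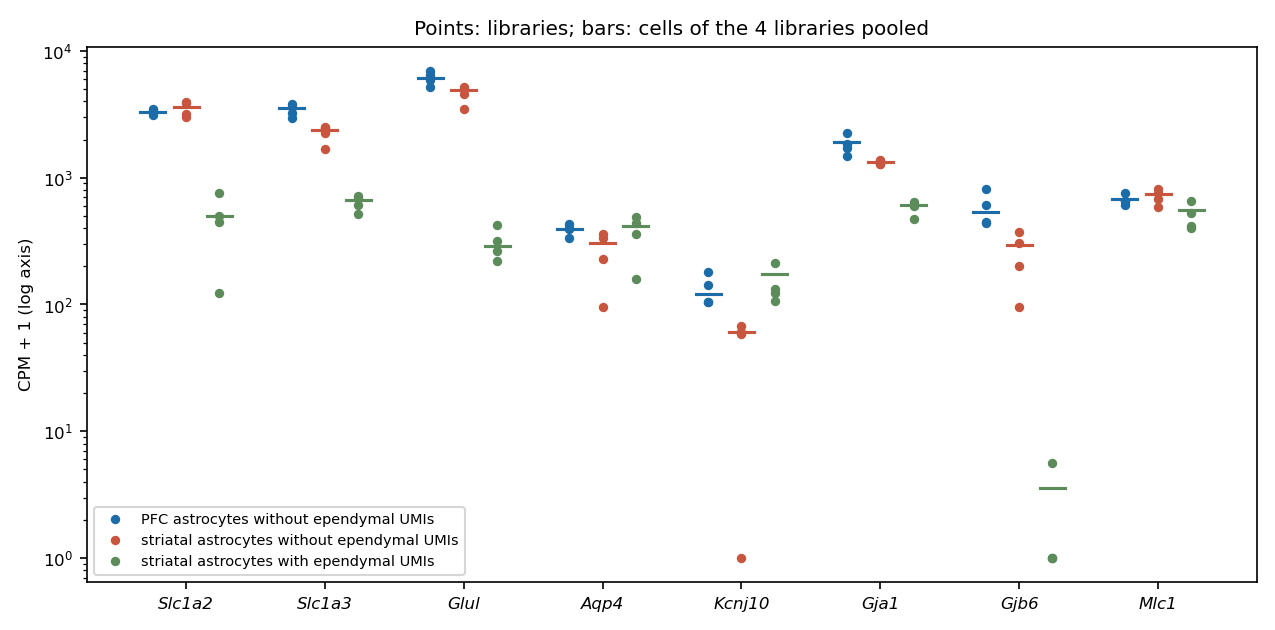
CPM + 1 (log axis) of the 8 genes in PFC astrocytes without ependymal marker UMIs (blue), striatal astrocytes without them (red) and striatal astrocytes with them (green), with points for the libraries and bars for all cells pooled. *Slc1a2*, *Glul* and *Gjb6* are far lower in the green set (bars at 495, 287 and 2.54 CPM), the *Mlc1* bar is lower by less, and those of *Aqp4* and *Kcnj10* are higher.

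Between tissues, 4 of the 8 members were lower in striatal than in PFC astrocytes, the 63 striatal cells with ependymal UMIs included. The test used all 8 libraries with genotype as a covariate, an FDR under 0.05 and an FC above 1.5. It called 12.5% of all 5741 genes tested, and 4.01% as lower in striatum. *Gjb6* was lower by the most, at 53.1 to 280.5 CPM in striatum and 442 to 820.3 CPM in PFC (log2 difference -1.47, standard error 0.30, FDR 0.0035). *Slc1a3* (-0.93, standard error 0.23, FDR 0.013), *Glul* (-0.83, 0.25, FDR 0.039) and *Gja1* (-0.72, 0.21, FDR 0.028) followed, all with no overlap between the tissues' libraries. *Kcnj10* did not overlap either, but missed the cutoff (-0.78, standard error 0.26, FDR 0.060) and passed it with the replicate number as a block (-0.81, FDR 0.043). That block joins libraries of both tissues by their number, whereas the methods describe replicates that hold both genotypes of a tissue. *Aqp4* (-0.42, FDR 0.23), *Slc1a2* (-0.34, FDR 0.37) and *Mlc1* (-0.06, FDR 0.90) did not pass and overlapped. The tissues did not overlap for 5 of 8 members and for 18.5% of all genes tested.

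The calls changed when some cells were left out. Without the astrocytes with an ependymal UMI, *Gjb6* alone passed (log2 difference -1.09, standard error 0.27, FDR 0.043), and 2.59% of all genes did. *Slc1a3* was then at -0.65 (FDR 0.11), *Gja1* at -0.51 (FDR 0.17) and *Glul* at -0.45 (FDR 0.26), still lower in striatum, and *Kcnj10* at -1.13 (FDR 0.064). The second Setd1a+/- striatal library then held 0 *Kcnj10* UMIs. *Slc1a2* moved to 0.03 and *Mlc1* to 0.07. Without the deepest 5% of cells of each library 0 members passed in edgeR, with *Gjb6* at -1.21 (FDR 0.073). With each of the 8 libraries left out in turn *Gjb6* passed each time, at -1.82 to -1.26, *Slc1a3* passed in 7 of the 8, and *Gja1* and *Glul* in 3 each.

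**Figure D5:**
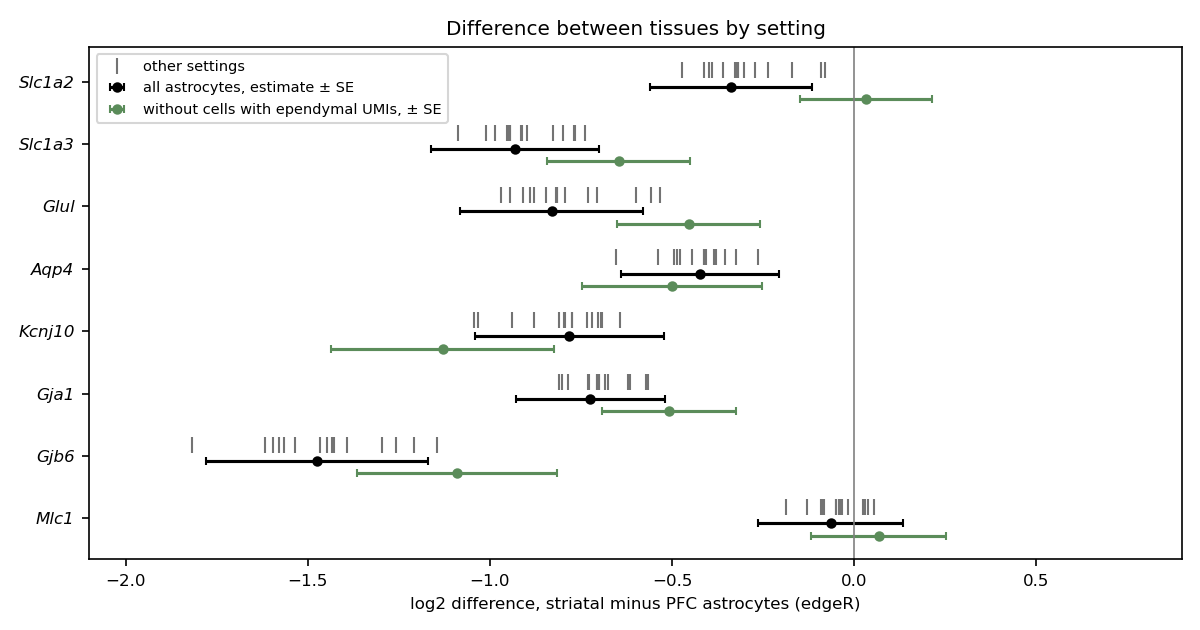
Log2 difference between striatal and PFC astrocytes for the 8 genes, with the estimate over all astrocytes (black, ± standard error), the estimate without cells with ependymal UMIs (green, ± standard error) and those under the other settings, leave-one-out included (gray ticks). *Gjb6* stays below -1 under every setting drawn, and *Slc1a2* and *Mlc1* reach 0.

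The lists of related genes gave the surroundings of these values in astrocytes. Like the members, they were chosen with earlier results of these data known. Their counts beside the shares of all genes are therefore a description and no test of a list. Of 19 genes of glutamate and glutamine handling 14 were tested between tissues, with 1 higher and 3 lower in striatum (median log2 difference -0.38, against 0.00 over all genes). Of all genes tested 12.5% were called, and 4.01% as lower. *Slc25a18*, a mitochondrial glutamate carrier, was at 434 to 589.6 CPM in PFC and 95.8 to 153 CPM in striatum (-2.19, FDR 5.1e-06). *Slc38a1*, a glutamine transporter, was at 16.3 to 25.7 CPM in PFC and 91.7 to 340 CPM in striatum (3.17, FDR 1.6e-05). *Slc7a11*, the cystine-glutamate exchanger (-1.14), and *Slc6a11*, a GABA transporter (-0.78), were lower. The tissues overlapped for *Slc7a11*, at 150 CPM in the second WT PFC library and 173 CPM in the first Setd1a+/- striatal library. Without the cells with ependymal UMIs, *Slc25a18* alone of this list passed (-2.46), beside 2.59% of all genes tested.

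Of 15 genes of potassium, water and ion balance 12 were tested and 3 were lower, beside 4.01% of all genes tested. They were *Kcnj16*, whose product joins Kir4.1 in channels (-1.47, FDR 0.0025), the bicarbonate cotransporter gene *Slc4a4* (-0.89, FDR 0.0094) and *Vegfa* (-1.54, FDR 0.037). For *Vegfa* the tissues overlapped, the first Setd1a+/- PFC library being the lowest of all, at 8.54 CPM. Of the 3 genes *Kcnj16* alone passed without the cells with ependymal UMIs (-1.59, FDR 0.012). Of 13 genes of astrocyte transcription and signaling 12 were tested, with *Rorb* lower (-0.99) and *Id4* higher (0.89) in striatum, and neither passed without those cells. Of 9 gap junction genes besides the members, 1 (*Tjp1*, which encodes a junction scaffold) was tested and it did not pass (FDR 0.28). Between genotypes, 0 genes of the 4 lists passed in astrocytes of either tissue (unadjusted p under 0.05 for 0 in PFC and 3 in striatum). Of all genes tested, 1.3% in PFC and 4.41% in striatum were at such a p.

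In the other 6 cell types named in both tissues, 24 tests of a member were made and 7 passed. In microglia, where 22.4% of all genes tested were called, all 4 members tested were lower in striatum. *Glul* in PFC microglia was at 886 and 736 CPM in WT libraries, against 1165 and 1337 CPM in Setd1a+/- libraries. Striatal microglia were at 344 to 629 CPM, all lower (log2 difference -1.14, FDR 0.0091). *Slc1a3* (195 to 314 against 29.9 to 103 CPM, -1.77), *Slc1a2* (-1.84) and *Gja1* (-3.27) fell with it. *Slc1a2* no longer passed when the second Setd1a+/- PFC library or any one of 3 striatal libraries, other than the first WT library, was left out (FDR 0.051 to 0.071), and ran from -2.71, without the first WT striatal library, to -1.57. These UMIs were unevenly spread: 56 of 482 PFC microglia held at least 3 UMIs of the astrocyte markers, and in these 11.6% of cells lay 80.8% of the *Slc1a2*, 93.5% of the *Gja1* and 29.2% of the *Glul* UMIs. In striatum 32 of 271 microglia (11.8%) were such cells. They held 49.1% of the *Slc1a2*, 60% of the 5 *Gja1* and 18.25% of the *Glul* UMIs. Without such cells in either tissue only *Slc1a3* (-1.13, FDR 0.022) and *Glul* (-0.95, FDR 0.027) were tested, and both passed, as did 28.8% of all genes. The summed microglia markers had a median of 17501 CPM in PFC and 11677 CPM in striatal microglia, and the summed neuron markers were at 81.6 to 460 CPM and 785 to 2062 CPM, and their part in these differences was not tested. Whether the remaining UMIs came from free RNA was not tested; the PFC droplets stood at 66.8 to 136 CPM of *Slc1a3* and the striatal ones at 40.9 to 85.3 CPM.

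In interneurons, where 12.2% of all genes tested were called, *Slc1a2* was higher in striatum, at 121 to 306 CPM against 68.6 to 122 CPM (1.27, FDR 0.0048). The striatal cells so labelled differed among themselves. *Slc17a7*, the vesicular glutamate transporter gene of excitatory neurons, had a UMI in 190 of 821 of them (23.1%, 20.3 to 25.2% by library) and in 11 of 298 PFC interneurons. Of those 190 cells 8.95% held a UMI of *Gad1*, the GABA synthesis gene, against 79.9% of the other 631. Pooled over libraries they held *Slc1a2* at 651 CPM and the others at 70.2 CPM. The WT libraries stood at 768 and 841 CPM and the Setd1a+/- libraries at 753 and 262 CPM, the second Setd1a+/- library lying far below the other 3. Without the cells with a *Slc17a7* UMI in both tissues the difference turned to -0.48 (FDR 0.32). *Glul* was lower in striatal interneurons, at 98.1 to 155 against 177 to 228 CPM (-0.72, FDR 0.012, and 0.051 without the first WT striatal library), and passed without those cells too (-0.67, FDR 0.017), where 10.7% of all genes were called.

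*Slc1a2* was also lower in striatal oligodendrocytes, at 31.5 to 46.7 against 56.1 to 101.4 CPM in PFC (-0.90, FDR 0.044), where 2.89% of all genes tested were called. Free RNA moved the same way, with *Slc1a2* at 407 to 570.2 CPM in the PFC droplets and 117 to 194 CPM in the striatal ones, and its part was not tested. The call was lost when any one of 7 libraries was left out (lowest and highest difference -1.14 and -0.79). *Glul* in oligodendrocytes did not pass (-0.21, FDR 0.61), nor did *Kcnj10* (-0.06, FDR 0.91). In OPCs, newly formed oligodendrocytes and endothelial cells 0 of 13 tests passed, with an unadjusted p under 0.05 for *Slc1a3* in OPCs (-0.67, FDR 0.13) and *Gja1* in endothelial cells (-0.49, FDR 0.22). All genes called there made up 0.26%, 0.0604% and 6.88% of those tested. Genes at an unadjusted p under 0.05 made up 13.9%, 9.57% and 21.3%, in the same order of types.

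The patterns over cell types were compared by Pearson's r of log2(CPM + 1) over the 72 sums of a type in a library, among 12785 genes with at least 200 UMIs. The sums share libraries and depth, so the values are descriptions. Among the members the connexins were closest, at 0.89 for *Gja1* and *Gjb6*, and *Kcnj10* and *Slc1a2* farthest apart, at 0.18. *Kcnj10* was at 0.20 with *Gja1*, 0.47 with *Glul*, 0.61 with *Aqp4* and 0.65 with *Slc1a3*. The genes most like *Slc1a2* were *Rorb*, *Aldoc* and *Cldn10* (0.90, 0.86 and 0.84). Those most like *Kcnj10* were *Tsc22d4*, *Cmtm5* and *S100b* (0.93, 0.91 and 0.89), and those most like *Glul* were *Gstm1*, *Pon2* and *Pmp22* (0.87, 0.85 and 0.84). *Slc1a3* was nearest to *Acsbg1*, *Slc9a3r1* and *Plpp3*, *Aqp4* to *Dio2*, *Adhfe1* and *Fzd2*, and *Gjb6* to *Gja1*, *Etnppl* and *Eva1a*. *Gja1* was nearest to *Fam107a*, *Gjb6* and *Slc7a11*, and *Mlc1* to *Gja1*, *Sox9* and *Fam107a*. *Acsbg1* was at 0.91 with the mean profile of the 8 members.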

How the data were processed

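The authors aligned reads to mm10 and counted them with Cell Ranger 3.0.2, per the labels, and the deposited counts are raw UMIs per gene and barcode with all droplets. The deposited annotation tables hold other information, the library, cell type and excitatory subtype of each cell kept after Seurat 3.2.0 clustering (at least 800 genes, at most 10% mitochondrial UMIs). The authors' gene-by-cell tables were not used because their gene column holds row numbers. No step that removes doublets is given in the sources used here and none was run.

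UMIs were summed per type and library (at least 10 cells in every library) and tested with edgeR 4.0.16 (quasi-likelihood, TMM, filterByExpr minimum count 10, Benjamini-Hochberg) in R 4.3.3. By the methods a biological replicate holds a library of either genotype, so libraries with the same number were taken as pairs. Deviations of paired libraries correlated at a median of 0.37 over PFC and 0.17 over striatal types. The main test has no block. Alternatives were RLE or no scaling factors, no filter, DESeq2 1.42.0, the replicate block, the deepest 5% of cells left out, cells thinned to 1000 UMIs, each library left out, and, added after seeing the data, 3 subsets of cells without ependymal, astrocyte or *Slc17a7* UMIs. For levels, the CPM denominator without mitochondrial and ribosomal protein genes was tried. Tests were tried on simulated data with known changes, and between genotypes in astrocytes they recovered few or none of the 2-fold changes. In most of these trials some unchanged genes were called as well, also between tissues in astrocytes. The named genes were the 8 members, the 3 genes nearest to each by Pearson's r, and up to 4 genes of each of 4 lists with the lowest p in astrocytes. The members and lists were chosen with earlier results of these data known. Shares carry 95% Wilson intervals, which cover counting error only. Whether both tissues came from the same mice is not given in the sources used here, so p-values measure the spread between these libraries. By the methods the enzyme digestion that freed the cells was longer for striatum than for PFC. The authors also annotated the tissues separately. Neither can be told apart from the tissue in any comparison between tissues.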

Additional observations from a re-analysis of the deposited data

Results flagged for a closer look

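*Glul* in astrocytes met a rule for a closer look because the genotypes moved in opposite directions in the 2 tissues, both Setd1a+/- libraries lying above both WT libraries in PFC and below both in striatum. The difference of the 2 genotype effects was tested by the interaction term and was -0.75 on the log2 scale (standard error 0.48, unadjusted p = 0.14 and FDR 1.0, from edgeR). Without the cells with ependymal UMIs it was -0.38 (standard error 0.41). The striatal log2 FC was then still negative, at -0.14, but the genotypes overlapped. *Glul* was at 5031 and 4554 CPM in WT striatal libraries, against 5207 and 3481 CPM in Setd1a+/- libraries, the first Setd1a+/- library being the highest of the 4. Groups of 2 libraries are too small for a test for outlying samples.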

How the results depend on the processing

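With 2 libraries per genotype and tissue and 31 to 354 astrocytes per library, a call that misses the cutoff does not show that the genotypes were alike. No alternative called a member between genotypes except 1, *Slc1a2* in striatal interneurons, without the first Setd1a+/- striatal library (0 to 1 over the libraries left out, and 0 to 0 in PFC and for the interaction). Over all libraries that difference was -0.51, and it turned to 0.64 without the cells with *Slc17a7* UMIs. The replicate block changed the call of *Kcnj10* in astrocytes and no other call of a named member.

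The number of members called between tissues in astrocytes, 4, fell to 2 with library size only, 0 without the deepest 5% of cells, 1 in cells thinned to 1000 UMIs, 1 without the astrocytes with ependymal UMIs, and 1 to 4 with a library left out. It was 2 without the first WT PFC, 2 without the first or the second WT striatal library, and 1 without the second Setd1a+/- PFC library. In the other shared types the number, 7, was 11 without the filter on low counts, 3 in thinned cells and 5 to 7 with a library left out. Of all genes tested in astrocytes, 12.5% were called in the main test and 2.59% without the astrocytes with ependymal UMIs. That share was not taken under the other settings named here. The counts of members therefore do not show whether the members lost calls more than other genes did.

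*Slc1a2* between astrocytes of the tissues turned to 0.033 without the cells with ependymal UMIs. *Mlc1*, at -0.06, turned to 0.038 with library size only, 0.054 without the deepest cells and 0.023 in thinned cells. It was at 0.067 without the cells with ependymal UMIs, and ran from -0.19 to 0.031 with a library left out. *Slc1a2* between interneurons of the tissues turned to -0.48 without the cells with *Slc17a7* UMIs, and was at 0.50 in thinned cells (FDR 0.42). *Gjb6* between genotypes in striatal astrocytes, at -0.17, turned to 0.39 in thinned cells and 0.23 without the cells with ependymal UMIs. It ran from -2.27 to 0.35 with a library left out. The causes of the other changes were not tested. Of 267 alternative values of the named members' log2 differences, 216 kept direction and call. Without mitochondrial and ribosomal protein genes in the denominator, 15 of 16 mean astrocyte CPM values moved by less than 1 SD, and that of *Slc1a2* in PFC rose to 3605 CPM. All 16 shares of astrocytes with a UMI moved by more than 1 SD on thinning.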
